A study of Mus musculus with 8 samples.

Results

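The proteasome genes are described here: every gene whose name in the deposited assemblies begins with Psma, Psmb, Psmc, Psmd, Psme, Psmf or Psmg followed by a digit, leaving out Psmc3ip, which encodes a recombination cofactor, and names ending in -ps. The rule, which uses names and no measured value, found 50 genes among the 33904 with a value, and 49 of them were among the 23031 genes tested. RNA was sequenced from leptotene and zygotene spermatocytes sorted from Bend2 WT and Bend2 KO mice, all C57BL/6 and 2 months old. Each genotype gave 2 libraries at each stage, 8 in all. Bend2 encodes a BEN domain protein, and the comparisons ask what its loss does to these cells. No gene with a value carries the symbol Bend2. The locus was not looked up under another name, so the deletion was not checked here. The labels do not say which libraries came from which animals, so a p-value here reflects only how far libraries of a group lie apart.

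The proteasome is the protease that degrades proteins tagged with ubiquitin. Its core is a barrel of stacked rings of alpha subunits (Psma genes), which gate the entrance, and beta subunits (Psmb genes), some of which cut. A regulatory particle of ATPases (Psmc) and other subunits (Psmd) binds and unfolds substrates, other activators (Psme) can take its place, and chaperones (Psmg and a few Psmd) assemble the whole. In male germ cells the testis subunit Psma8 can replace its close relative Psma7, and in immune cells Psmb8, Psmb9 and Psmb10 replace Psmb5, Psmb6 and Psmb7. Leptotene and zygotene are the first stages of meiotic prophase, when chromosomes break, pair and begin to synapse.

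The libraries held between 6.82 and 9.45 aligned gigabases, estimated from coverage. Levels are TPM (transcript abundance per length, relative to the library's total) summed over the transcripts of a gene and divided by a factor per library, called scaled TPM below. Differences are on the scale log2(scaled TPM + 1). A gene was called when its p from limma, adjusted over all tested genes, was under 0.05. In each group one library had between 21.2% and 23% of its TPM in single-exon transcripts outside genes and the other between 9.59% and 13.8%. The 12 markers of leptotene and zygotene cells, such as Sycp3, were all above the filter, with summed levels of 400 to 864 scaled TPM in WT and 506 to 632 in KO.

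Marker genes of other germ cell stages and of macrophages were also detected, and their summed levels differed between the genotypes. The 10 markers of pachytene spermatocytes, the following stage, summed to between 1064 and 1392 scaled TPM in the 4 WT libraries and between 198 and 392 in the 4 KO libraries, and 8 of 10 were lower over both stages by limma. Round spermatid markers, from cells after meiosis, summed to between 5011 and 9667 in WT and between 704 and 1590 in KO, and 10 of 10 were lower. Spermatogonium markers summed to between 209.9 and 283 in WT and between 511 and 805 in KO, with 7 of 10 higher, Stra8 among them, which is also in the leptotene and zygotene list. Macrophage markers summed to between 147 and 656 in WT and between 36.7 and 70.8 in KO, with 6 of 10 lower. At leptotene and zygotene the WT sums were 147 and 166 in replicate 1 and 491 and 656 in replicate 2. Aif1 alone had 78.1 and 70.6 scaled TPM in WT replicate 1. Of the stromal markers 4 of 7 were lower, and of the lymphocyte markers 1 of 9. For the pachytene, round spermatid, spermatogonium and macrophage lists no summed level of a WT library lay within the KO range. Their part in each proteasome result below was not tested, and fewer cells of a type cannot be told apart from less RNA per cell.

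**Figure D1:**
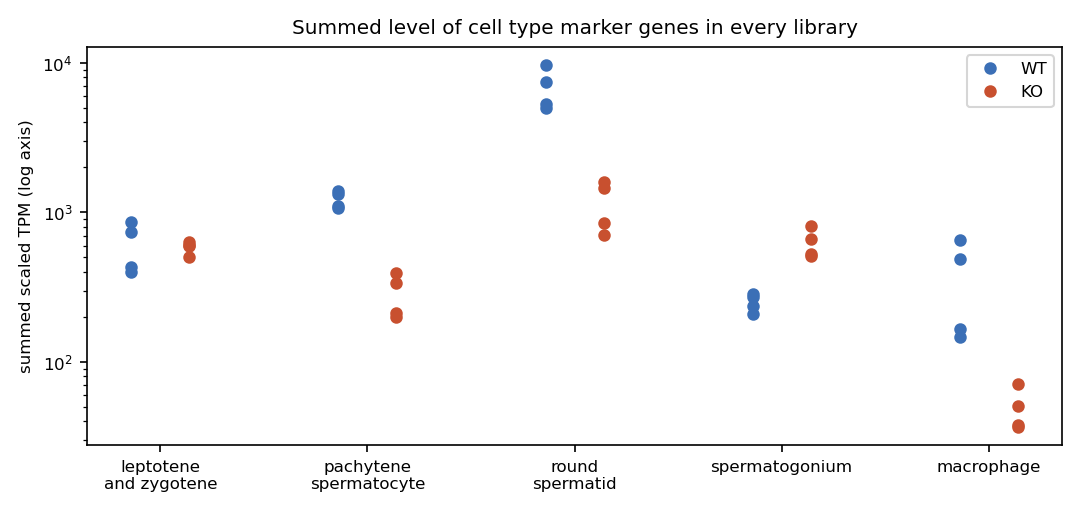
Summed level of the marker genes of 5 cell types (vertical axis, scaled TPM, log axis) in the 4 WT libraries (blue) and the 4 KO libraries (orange). WT and KO overlap for the leptotene and zygotene markers and lie apart for the other 4 lists.

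Most proteasome genes had higher estimates in KO than in WT, and a few had lower ones. Over both stages, with 4 libraries a genotype, 40 of the 49 tested genes had a positive estimate, or 81.6%, against 46.2% of all tested genes. The median log2 fold change was 0.42 for the 49 genes and -0.06 for all genes. Limma called 7 of the 49. The called genes that rose were Psma2 and Psma5 of the alpha ring, Psmb1 and Psmb3 of the beta ring and Psmd2 of the regulatory base. The genes that fell were Psmf1, an inhibitor of the core, and Psme4, an activator. Of all tested genes, 8.82% were called in this comparison, 2.22% as higher in KO and 6.6% as lower, beside which the 7 calls make up 14.3% of the 49. An unadjusted p under 0.05 was found for 27 of the 49 and for 25.6% of all tested genes, the share against which the counts by role below stand. Without scaling of the TPM, 1 of the 49 was called higher and 2 lower, the median of all genes was -0.13 and that of the 49 was 0.33. With quantile normalization 7 were called higher and 2 lower, and these medians were 0.09 and 0.48. The 49 members are those that passed a filter of 1 TPM in 2 libraries. Psmb11, the thymus subunit, did not, with between 0 and 0.432 scaled TPM.

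At neither stage alone was a proteasome gene called, with 2 libraries a group. At leptotene 0 of 49 were called by limma, where 1.32% of all genes were, and 14 had an unadjusted p under 0.05, 9 with higher and 5 with lower estimates, beside 17.8% of all tested genes. At zygotene 0 of 49 were called, where 0.868% of all genes were, and 13 had an unadjusted p under 0.05, 11 higher and 2 lower, beside 16.5% of all tested genes. The medians were 0.37 at leptotene and 0.49 at zygotene, against -0.06 for all genes at both. The test of whether the KO difference itself changed with stage called 0 of 49, with 0 at an unadjusted p under 0.05 and 0.013% of all genes called.

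Without reference to a test, all 4 KO libraries lay above all 4 WT libraries in 15 of the 49 genes, or 30.6%, against 7.01% of all tested genes. All 4 KO libraries lay below all 4 WT libraries in 5 of 49, or 10.2%, against 10.7% of all tested genes. The 5 were Psma6, Psmc2, Psmc3, Psme4 and Psmf1. The groups of 4 overlapped in the other 29.

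**Figure D2:**
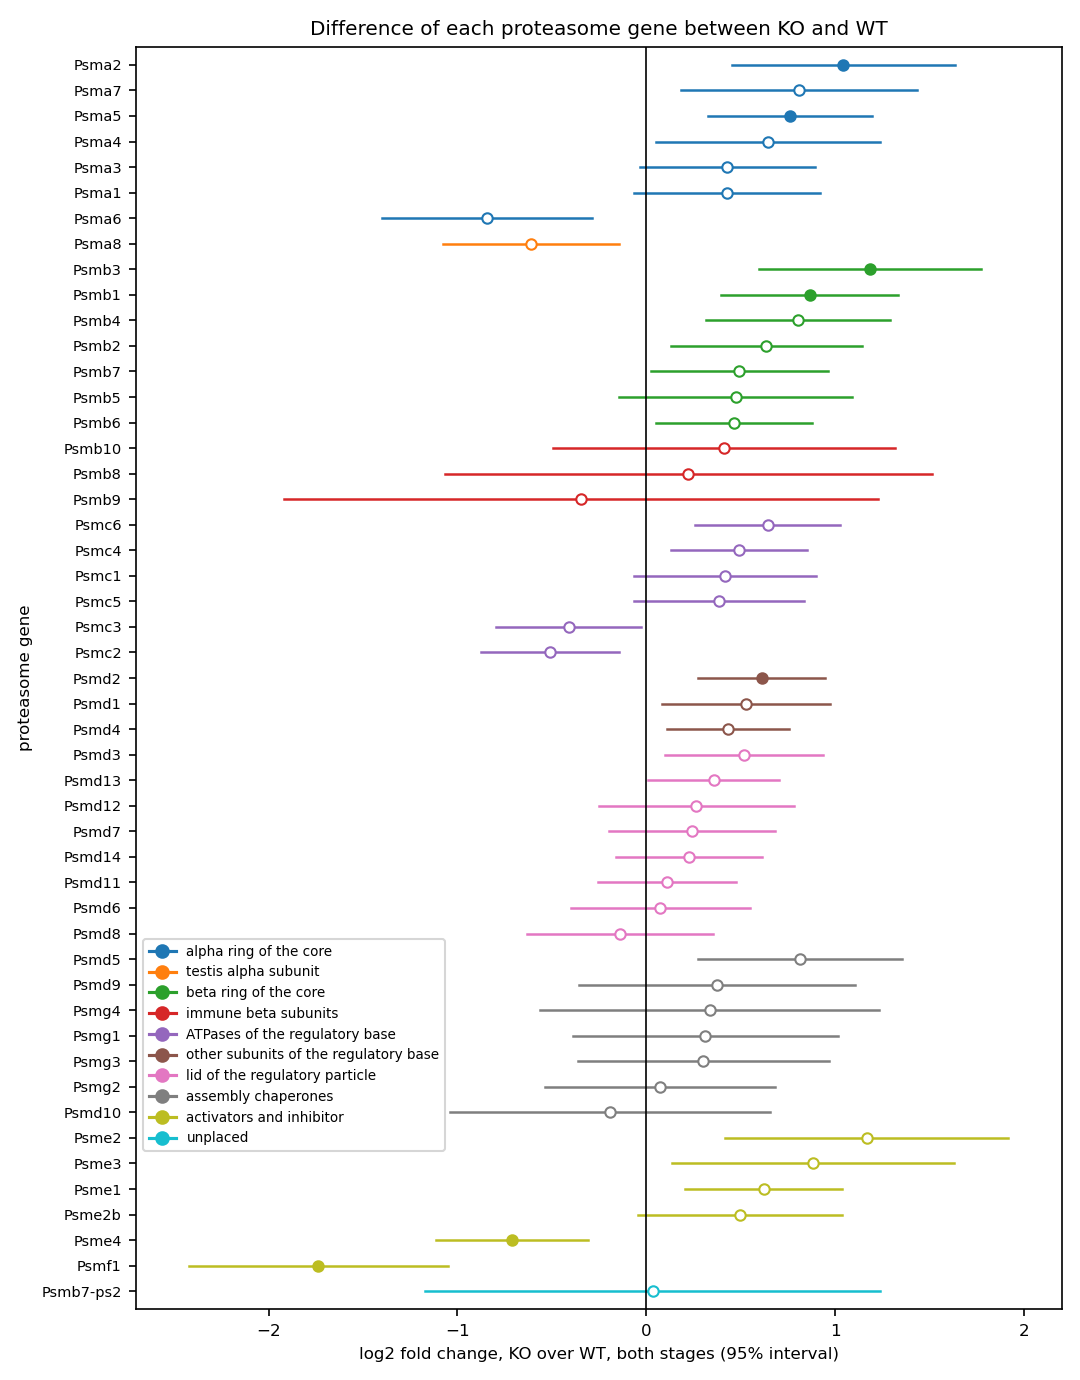
Log2 fold change of KO over WT across both stages (horizontal axis, on the log2(scaled TPM + 1) scale) for the 49 tested proteasome genes (rows), coloured by role, with 95% intervals. Filled points mark the 7 called genes; most points lie right of 0, with Psmf1 farthest to the left at -1.74.

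In the alpha ring, 6 of 7 genes had positive estimates over both stages and 2 were called, both higher. Of all tested genes, 2.22% were called higher. An unadjusted limma p under 0.05 was found for 5 of 7, 4 higher and 1 lower, beside 25.6% of all tested genes. Psma2, a structural subunit of the ring (chromosome 13, 14613240 to 14674236, GRCm38), had 5.45 and 8.60 scaled TPM in WT against 16.4 and 20.8 in KO at leptotene, and 5.59 and 8.40 in WT against 12.1 and 12.8 in KO at zygotene. Every KO library was above every WT library. The log2 fold change of Psma2 over both stages was 1.04 ± 0.26 (SE, limma adjusted p = 0.0442). With only the transcripts that the files name, it was 0.60 and not called (limma adjusted p = 0.346). The named transcript of Psma2, ENSMUST00000170836, had 6.04 scaled TPM in KO leptotene replicate 2, within the WT range of 5.45 to 8.40, so the separation of the groups rested on unnamed transcripts in that library. Psma5, another alpha subunit (chromosome 3, 108256926 to 108279974), had 16.3 and 20.8 scaled TPM in WT against 40.1 and 28.1 in KO at leptotene, and 19.6 and 21.5 in WT against 34.3 and 33.1 in KO at zygotene. These groups did not overlap either, and the log2 fold change was 0.76 ± 0.19 (limma adjusted p = 0.0458). With named transcripts only it was 0.82 and not called (limma adjusted p = 0.0963). An antisense gene, 1700010K24Rik, shares exonic bases with Psma5, and without a strand option their reads cannot be told apart. Psma1, whose 8 libraries ranged from 26.3 to 50.4 scaled TPM, had an estimate of 0.43 and was not called (limma adjusted p = 0.262), nor was it with named transcripts only (0.78, limma adjusted p = 0.197).

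Psma6 was the exception among the alpha subunits at the level of the whole gene. It was the most abundant of them, with 87.8 and 142 scaled TPM in WT against 67.2 and 39.6 in KO at leptotene, and 89.9 and 96.7 in WT against 50.4 and 75.1 in KO at zygotene. All KO libraries were below all WT libraries, but the whole-gene difference of -0.84 ± 0.24 was not called (limma adjusted p = 0.0697). Psma6 (chromosome 12, 55384222 to 55418454, plus strand, GRCm38) has a pair of annotated protein-coding transcripts with starts 14553 bases apart. The upstream one, ENSMUST00000163070, begins at 55384222 with a first exon that ends at 55384327. The downstream one, ENSMUST00000021412, begins at 55398775. Each has 7 coding exons, of which 6 are identical in both, so the annotated proteins differ at the N-terminus: GENCODE gives 227 codons from the upstream start and 246 from the downstream start.

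The sequences before these starts are shown because the difference in Psma6 lies at one of them. Capitals mark CCAAT and CCGGAAG on either strand (ATTGG and CTTCCGG on the strand printed), and no stretch printed holds TGACNNNGC. All are from RefSeq promoter windows, GRCm38.p6, plus strand, ending before the first annotated exon. The stretch before Psmb3, a gene that rose, is given for comparison.
Psma6 upstream start, chr12:55383972-55384221: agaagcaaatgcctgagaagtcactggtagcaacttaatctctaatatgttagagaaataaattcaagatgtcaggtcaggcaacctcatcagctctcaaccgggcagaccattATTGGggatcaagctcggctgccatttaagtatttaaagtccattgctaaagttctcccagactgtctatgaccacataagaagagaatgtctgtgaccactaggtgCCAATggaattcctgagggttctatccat
Psma6 downstream start, chr12:55398575-55398774: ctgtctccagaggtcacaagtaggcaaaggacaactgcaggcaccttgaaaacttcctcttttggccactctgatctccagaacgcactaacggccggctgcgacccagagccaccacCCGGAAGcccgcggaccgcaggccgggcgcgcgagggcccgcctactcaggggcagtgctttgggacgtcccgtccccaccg
Psmb3, chr11:97703184-97703398: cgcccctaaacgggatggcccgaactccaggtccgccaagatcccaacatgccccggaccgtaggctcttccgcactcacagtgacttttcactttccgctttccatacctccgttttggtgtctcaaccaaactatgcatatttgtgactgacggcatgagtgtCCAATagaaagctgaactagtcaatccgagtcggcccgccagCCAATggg
The Psma6 upstream stretch was 42.8% G or C and held CCAAT at 2 places. The downstream stretch was 65% G or C, with CCGGAAG once and no CCAAT. The Psmb3 stretch was 54.4% G or C, with CCAAT at 2 places. A match of letters is a description and does not show binding.

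Transcripts from the upstream Psma6 start were scarce in KO. Summing all transcripts that begin within 300 bases of it gave 43.6 and 94.3 scaled TPM in WT against 3.48 and 2.94 in KO at leptotene, and 33.6 and 35.7 in WT against 5.56 and 3.12 in KO at zygotene. The highest KO library was thus far below the lowest WT library. From the downstream start there were 42.9 and 46.1 scaled TPM in WT against 63.5 and 36.5 in KO at leptotene, and 56.1 and 59.3 in WT against 44.7 and 71.9 in KO at zygotene. These values overlapped, with means of 51.1 ± 7.85 in WT and 54.2 ± 16.3 in KO (SD, n = 4). The upstream start gave 47.6% ± 13.8 of the Psma6 TPM in WT and 6.94% ± 3.05 in KO (SD, n = 4).

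Annotated transcripts were also fitted one by one in limma, 32199 in all, of which 130 belong to 49 proteasome genes. This fit was chosen after seeing the data. ENSMUST00000163070 of Psma6 fell at leptotene by 3.96 ± 0.48 on the log2 scale (limma adjusted p = 0.0311), the only 1 of the 130 called, where 0.562% of all transcripts were. At zygotene its estimate was -2.75 ± 0.48 (limma adjusted p = 0.0616), and 0 of the 130 were called, where 0.699% of all were. Over both stages it fell by 3.35 ± 0.34 (limma adjusted p = 0.00616), 1 of 2 of the 130 called, where 3.52% of all were. The downstream transcript ENSMUST00000021412 had an estimate of 0.04 ± 0.27 over both stages (limma adjusted p = 0.965). The call over both stages was lost without WT zygotene replicate 1 (adjusted p = 0.057) and without WT zygotene replicate 2 (0.0647). The call at leptotene was kept on leaving out KO zygotene replicate 2 (adjusted p = 0.049) and lost on leaving out any other library (0.0514 to 0.183). It was also lost with no filter on low values (0.0731), with the leptotene libraries alone (0.26) and with the replicate number as a block (0.0896), and the direction was kept in all 19 alternatives. Pachytene and round spermatid marker sums were lower in the same 4 KO libraries, and their part in this difference was not tested.

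**Figure D3:**
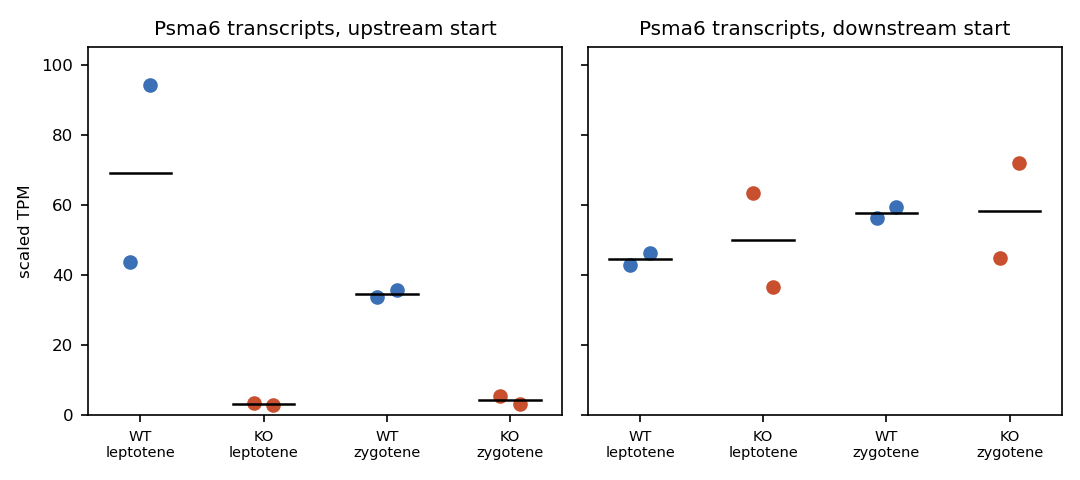
Scaled TPM (vertical axis) of Psma6 transcripts that begin at the upstream start (left) and the downstream start (right) in the 2 libraries of each group, with the mean as a bar. At the upstream start all KO libraries lie below 6 and all WT libraries above 33, and at the downstream start the groups overlap.

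Psma8, the alpha subunit made in male germ cells (chromosome 18, 14706151 to 14762301), was detected in every library at a lower level than Psma7. It had 13.5 and 12.2 scaled TPM in WT against 7.44 and 6.87 in KO at leptotene, and 16.8 and 19.8 in WT against 12.8 and 13.2 in KO at zygotene. Within each stage both KO libraries were below both WT libraries, while KO zygotene overlapped WT leptotene. The log2 fold change was -0.76 ± 0.29 at leptotene (limma adjusted p = 0.214), -0.46 ± 0.29 at zygotene (0.496) and -0.61 ± 0.20 over both stages (0.103), so Psma8 was not called, with a 95% interval over both stages from -1.08 to -0.15. Between WT leptotene and WT zygotene the estimate was 0.48 ± 0.29 (limma adjusted p = 1), and between the KO stages 0.78 ± 0.29 (limma adjusted p = 0.851).

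Psma7, which Psma8 can replace, had 21.6 and 35.2 scaled TPM in WT against 62.4 and 30.4 in KO at leptotene, and 27.4 and 27.9 in WT against 46.4 and 65.8 in KO at zygotene, and was not called (0.81 ± 0.27 over both stages, limma adjusted p = 0.106). As a share of Psma7 and Psma8 together, Psma8 was 38.5% and 25.7% in WT against 10.7% and 18.4% in KO at leptotene, and 38.1% and 41.5% in WT against 21.6% and 16.7% in KO at zygotene. The WT mean was 36% ± 7.03 and the KO mean 16.8% ± 4.61 (SD, n = 4). No KO library reached the lowest WT share. This share is a ratio formed from genes that were each not called, and no test was run on it. The pachytene markers, which stand for a stage in which Psma8 is made, were lower in the same KO libraries, with the sums given above, and their part in the Psma8 values was not tested.

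**Figure D4:**
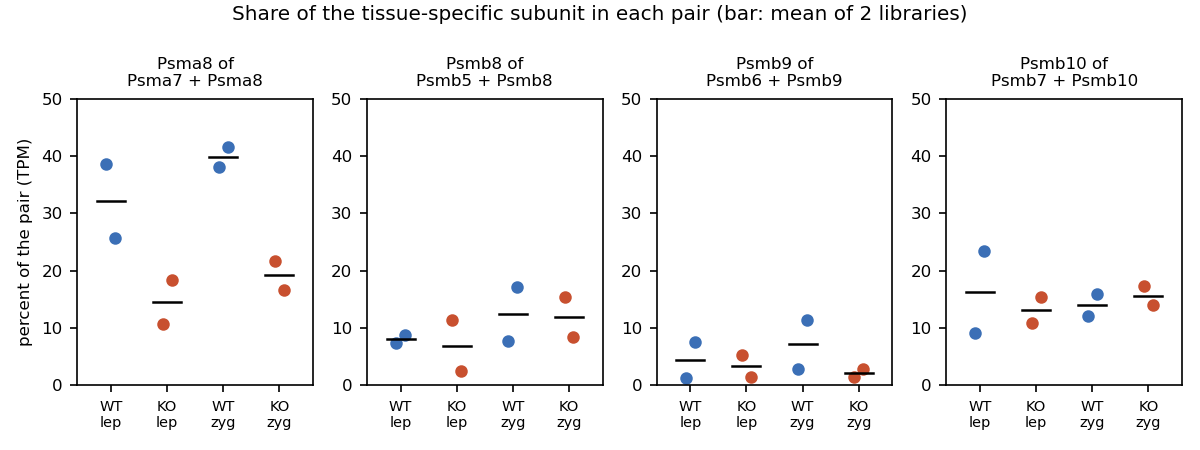
Share of the tissue-specific subunit in each pair of related subunits (vertical axis, percent of the TPM of the pair) in the 2 libraries of each group (blue WT, orange KO; lep, leptotene; zyg, zygotene), with the mean as a bar. The Psma8 share lies between 25.7% and 41.5% in WT and between 10.7% and 21.6% in KO, while the shares of the immune subunits overlap.

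All 7 beta ring genes had positive estimates at both stages, and 2 were called over both stages, beside 2.22% of all tested genes called higher. Over both stages 6 of 7 had an unadjusted limma p under 0.05, all higher, beside 25.6% of all tested genes. Psmb3, a structural subunit (chromosome 11, 97703399 to 97713500), had 10.04 and 19.3 scaled TPM in WT against 44.1 and 37.4 in KO at leptotene, and 19.4 and 32.5 in WT against 43.9 and 51.6 in KO at zygotene. The KO libraries all lay above the WT libraries, and Psmb3 rose by 1.18 ± 0.26 (limma adjusted p = 0.0288), the largest increase among the called proteasome genes. Psmb1, also structural (chromosome 17, 15475021 to 15499751), had 39.0 and 33.6 scaled TPM in WT against 81.3 and 47.7 in KO at leptotene, and 29.0 and 33.6 in WT against 56.4 and 67.6 in KO at zygotene, a rise of 0.86 ± 0.20 (limma adjusted p = 0.038). With named transcripts only, Psmb3 was still called (1.24, limma adjusted p = 0.0455) and Psmb1 was not (0.93, limma adjusted p = 0.0692). Psmb4, the most abundant beta gene, ranged from 80.6 to 111 scaled TPM in WT and from 117 to 205 in KO without overlap, and narrowly missed the threshold (0.80 ± 0.21, limma adjusted p = 0.0546). The 3 catalytic subunits Psmb5, Psmb6 and Psmb7 had estimates of 0.47, 0.46 and 0.49 and were not called. Summed over the 7 genes, the beta ring had between 291 and 359 scaled TPM in WT and between 393 and 619 in KO.

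The immune subunits were at low levels, with 0 of 3 called by limma over both stages and 0 at an unadjusted p under 0.05. Psmb8 ranged from 1.40 to 6.12 scaled TPM in WT and from 0.507 to 6.57 in KO. Psmb9 ranged from 0.832 to 10.1 in WT and from 1.06 to 6.10 in KO, and Psmb10 from 4.20 to 16.3 in WT and from 8.96 to 13.8 in KO. The groups overlapped for all 3. Their estimates over both stages were 0.22 (95% interval -1.07 to 1.51), -0.35 (-1.92 to 1.23) and 0.41 (-0.50 to 1.32), so changes of over 2-fold in either direction lie within the intervals of Psmb8 and Psmb9. All 3 estimates turned sign on leaving out single libraries, and those of Psmb8 and Psmb9 also when unnamed pieces of transcripts were left out. Antisense exons overlap Psmb8, and exons of Tap1 overlap Psmb9 on the opposite strand. Among 10 other genes of antigen presentation and interferon response, 1 was called over both stages, beside 8.82% of all tested genes, and 6 had positive estimates. H2-K1, the most abundant of the 10, had an estimate of 0.16 and was not called (limma adjusted p = 0.71). The called gene was B2m, the light chain of class I MHC. B2m had 30.8 and 63.7 scaled TPM in WT against 6.24 and 14.5 in KO at leptotene, and 56.6 and 104.8 in WT against 25.1 and 17.2 in KO at zygotene, a fall of 1.97 ± 0.35 over both stages (limma adjusted p = 0.0148). Macrophage markers moved in the same libraries, and their part was not tested.

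Among the 6 ATPases of the regulatory base, which unfold substrates, 4 had positive and 2 negative estimates. Limma called 0 of them, with 4 of 6 at an unadjusted p under 0.05, beside 25.6% of all tested genes. The negative estimates were those of Psmc2 and Psmc3. Psmc3, the most abundant ATPase, ranged from 147 to 189.7 scaled TPM in WT and from 106 to 144 in KO (-0.41 ± 0.17, limma adjusted p = 0.167). Psmc2 ranged from 47.2 to 66.9 in WT and from 36.1 to 46.8 in KO (-0.51 ± 0.16, limma adjusted p = 0.0879). Psmc2 and Psmc3 each had no overlap between the genotypes, with KO below, as had 10.7% of all tested genes. Exons of Slc39a13 overlap those of Psmc3 on the opposite strand. With named transcripts only, the estimate for Psmc2 was -1.54 (limma adjusted p = 0.373), where its main named transcript, ENSMUST00000030769, has no entry in the assembly of KO leptotene replicate 1, has 24.5 scaled TPM in WT leptotene replicate 1 and overlaps between the groups. With the crossed pairing of replicates, chosen after seeing the data, Psmc2 was called (limma adjusted p = 0.0492). That setting called more of all genes too, 866 higher and 1999 lower, against 512 and 1519 in the main fit. Psmc6 went the other way, from 18.6 to 22.4 in WT and from 29.4 to 34.1 in KO (0.64 ± 0.17, limma adjusted p = 0.0525, and 0.98 with named transcripts only, limma adjusted p = 0.0595). The 6 genes together had between 326 and 391 scaled TPM in WT and between 313 and 392 in KO.

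Of the 3 other base subunits, Psmd1, Psmd2 and Psmd4, all had positive estimates. All 3 had an unadjusted limma p under 0.05 over both stages, beside 25.6% of all tested genes. Psmd2, a large scaffold that docks substrates and the most abundant proteasome gene here (chromosome 16, 20651652 to 20663414), had 121 and 123 scaled TPM in WT against 202 and 160.2 in KO at leptotene, and 119 and 112 in WT against 174 and 194 in KO at zygotene. The 4 WT libraries were close together and all KO libraries above them, and Psmd2 rose by 0.61 ± 0.15 (limma adjusted p = 0.041). With named transcripts only the estimate for Psmd2 was 0.57 and not called (limma adjusted p = 0.108). Psmd1, the other large scaffold, ranged from 32.6 to 47.5 in WT and from 44.4 to 64.8 in KO (0.53 ± 0.19, limma adjusted p = 0.134). Exons of Htr2b (opposite strand) and Gm21972 (same strand) overlap Psmd1. In the lid, which removes ubiquitin, 7 of 8 genes had positive estimates, from 0.07 to 0.52. Limma called 0 of them, with 2 of 8 at an unadjusted p under 0.05, a share near the 25.6% of all tested genes. Psmd3, which exons of Gm12356 overlap on the opposite strand, had the highest estimate of the lid genes (0.52 ± 0.18, limma adjusted p = 0.122). Psmd8, the most abundant lid gene, had the lowest (-0.14 ± 0.22, limma adjusted p = 0.752).

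Of 7 assembly chaperones 6 had positive estimates, and limma called 0, with 1 of 7 at an unadjusted p under 0.05, beside the same 25.6%. Psmd5, which holds an intermediate of the base, ranged from 6.499 to 8.85 scaled TPM in WT and from 10.2 to 19.2 in KO without overlap (0.81 ± 0.24, limma adjusted p = 0.071). Psmg1, a chaperone of the alpha ring, overlapped between the groups (0.31 ± 0.31, limma adjusted p = 0.581), as did Psmg3 (0.30 ± 0.29, limma adjusted p = 0.573). The pseudogene Psmb7-ps2, kept because its name does not end in -ps, had between 0.601 and 6.39 scaled TPM and no call (0.03 ± 0.52), and reads of near-identical copies could be split between it and Psmb7.

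Of the 6 activator and inhibitor genes 2 were called, both lower. These were the only lower calls among the 49, beside 6.6% of all tested genes called lower. An unadjusted limma p under 0.05 was found for 5 of 6, 3 higher and 2 lower, beside 25.6% of all tested genes. Psmf1 encodes PI31, which inhibits the core in vitro and binds it in cells (chromosome 2, 151715812 to 151744186, minus strand). It had 89.6 and 153.9 scaled TPM in WT against 56.3 and 26.7 in KO at leptotene, and 84.2 and 138 in WT against 24.6 and 32.1 in KO at zygotene. Every KO library was below every WT library, and Psmf1 fell by 1.74 ± 0.30 (limma adjusted p = 0.0135), the largest difference in the set. By start, transcripts beginning near that of ENSMUST00000109869 had between 27.4 and 68.7 scaled TPM in WT and between 10.1 and 20.6 in KO. Those near the internal start of ENSMUST00000151656, a model that GENCODE types as a retained intron, had between 42.5 and 90.9 in WT and between 7.32 and 24.5 in KO. Transcripts near the start of ENSMUST00000042452, with the same coding start as ENSMUST00000109869, had between 2.102 and 17.2 in WT and between 5.15 and 8.32 in KO. The differences thus lay at the first and the internal start, and the values at the start of ENSMUST00000042452 overlapped. Single transcripts of Psmf1 were not called over both stages (-2.25 ± 0.57, limma adjusted p = 0.0886, for ENSMUST00000109869, and -4.02 ± 0.96, 0.075, for ENSMUST00000151656).

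Psme4 encodes PA200, an activator known for the degradation of acetylated histones in spermatogenic cells (chromosome 11, 30771726 to 30880361). It had 58.0 and 50.6 scaled TPM in WT against 25.7 and 36.9 in KO at leptotene, and 51.2 and 44.5 in WT against 29.4 and 31.7 in KO at zygotene. No KO library reached the lowest WT library, and Psme4 fell by 0.71 ± 0.17 (limma adjusted p = 0.0441), or by 1.07 with named transcripts only (limma adjusted p = 0.0159). Its 47-exon transcript ENSMUST00000041231 ranged from 39.0 to 48.6 scaled TPM in WT and from 19.4 to 20.3 in KO, a fall of 1.12 ± 0.21 in the fit of transcripts (limma adjusted p = 0.0392), which was kept in 6 of 18 alternatives and lost on leaving out any 1 library (0.0756 to 0.104). The remaining 4 activator genes had positive estimates and were not called. Psme2, which with Psme1 forms the interferon-inducible activator PA28, ranged from 6.89 to 21.3 in WT and from 26.1 to 46.2 in KO (1.17 ± 0.33, limma adjusted p = 0.0653, and 1.88 with named transcripts only, limma adjusted p = 0.174), and Psme2b, a copy of it, could share its reads.

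**Figure D5:**
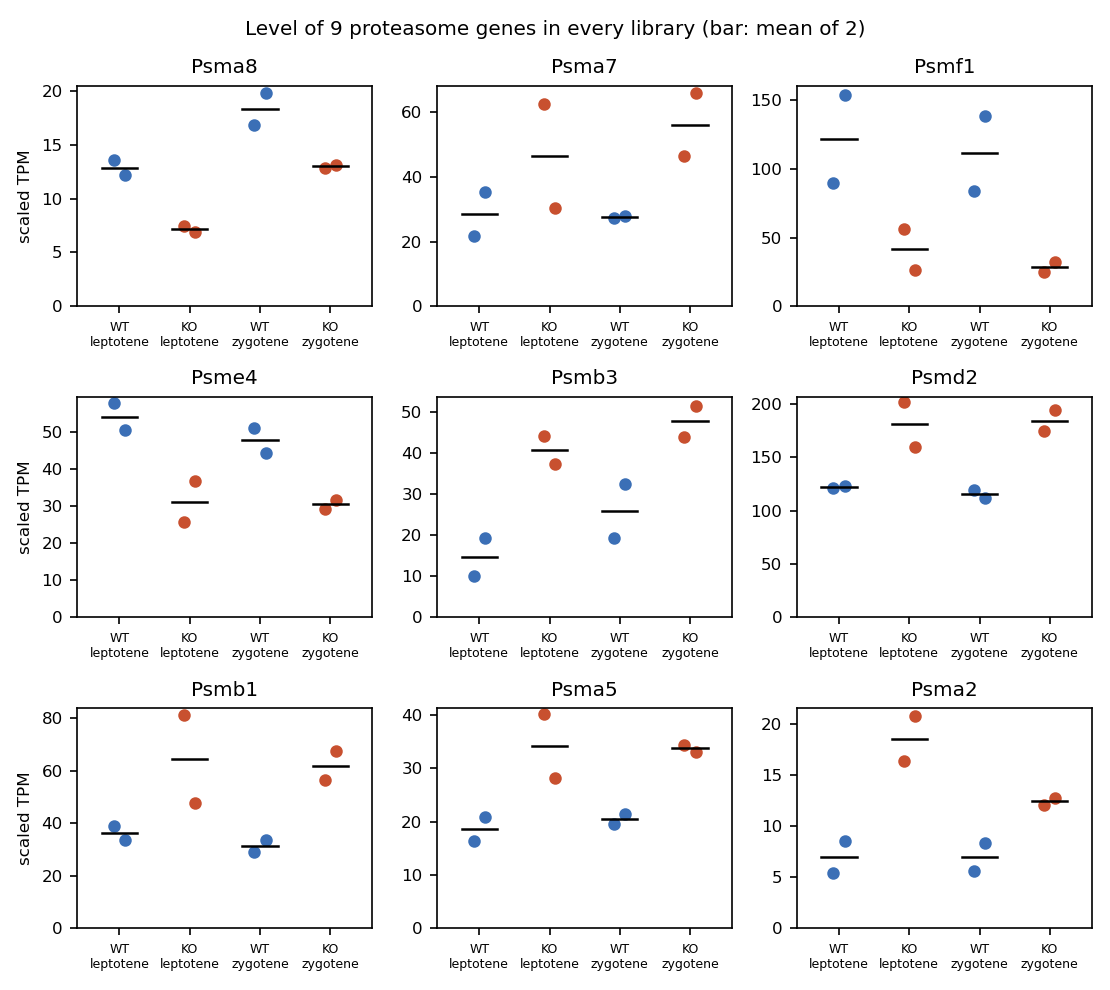
Scaled TPM (vertical axis, from 0) of Psma8, Psma7 and the 7 called proteasome genes in the 2 libraries of each group (blue WT, orange KO), with the mean as a bar. For Psmf1 and Psme4 the KO libraries lie below all WT libraries, for Psmb3, Psmd2, Psmb1, Psma5 and Psma2 above them, and for Psma8 below those of the same stage.

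These 7 calls depended on each library, and calls over all tested genes also became fewer whenever a library was left out. Leaving out WT leptotene replicate 1, KO leptotene replicate 1 or KO zygotene replicate 1 left 1 call each, leaving out KO leptotene replicate 2 left 2, and leaving out WT leptotene replicate 2, either WT zygotene replicate or KO zygotene replicate 2 left 0. Psmf1 was called in the 4 fits that left calls and Psmb1 in 1 of them. The direction of all 7 was kept in each of the 19 alternatives, and the call in 15 of 19 for Psmf1, 9 for Psmb3, 8 for Psme4, 7 for Psmb1 and 6 each for Psma2, Psma5 and Psmd2. Of these 19, 1 is the crossed pairing of replicates, chosen after seeing the data. All 7 were called under it, so it adds 1 to each tally.

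Between the stages, proteasome genes were not called. In WT zygotene against leptotene 0 of 49 were called by limma, with 0 at an unadjusted p under 0.05, beside 3.98% of all tested genes, where 0.00868% of all genes were called. In KO 0 of 49 were called, with 2 at an unadjusted p under 0.05, Psma8 and the chaperone Psmd10, beside 5.19% of all tested genes, where 0.0217% of all genes were. The median log2 fold change of the 49 was -0.05 between the WT stages and 0.05 between the KO stages.

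Genes that act with the proteasome were also read from a list of 25, among them ubiquitin-activating enzymes, shuttle factors, deubiquitinases and regulators of proteasome genes, of which 24 were tested. Limma called 0 of 24 at leptotene, zygotene or over both stages, with 3, 1 and 4 of 24 at an unadjusted p under 0.05, beside the 17.8%, 16.5% and 25.6% of all tested genes, and the medians were 0.04, 0.11 and 0.08. Adrm1, a ubiquitin receptor of the regulatory particle, ranged from 33.3 to 73.4 scaled TPM in WT and from 79.8 to 106.6 in KO (0.77 ± 0.25, limma adjusted p = 0.0968).

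RefSeq promoter windows of 300 bases, 250 before to 50 after a start, were matched to 41 of the 50 genes, 44 windows in all, among 32851. TGACNNNGC, the core of the element bound by NRF1 and NRF2, was in 6 of 44 windows, or 13.6%, against 12.4% of all windows, and Psme4 was the 1 called gene among them. CCAAT was in 14 of 44, or 31.8%, against 37.4% of all windows. CCGGAAG, searched after promoter sequences had been seen, was in 15 of 44, or 34.1%, against 8.86% of all windows. The windows with CCGGAAG belong to 14 genes, among them Psmd2, which rose, and Psme4, which fell. Upstream of the start the member windows had a median of 57.4% G or C, against 52.4% for all windows. Both strands were searched, and the motifs do not overlap in the stretches printed.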

How the data were processed

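RNA was extracted with TRIzol and made into libraries with a directional kit, per the labels' protocols. HISAT2, DESeq2 and mm10 are named per the submitters' processing notes, without settings. The authors deposited transcripts assembled in each library with StringTie 2.1.2, per the file headers, on the annotation of Ensembl release 89 and without a setting for strand, each with its mean coverage, FPKM and TPM. Read counts were not used here, so no counting interval is given, and the precision rests on 2 libraries per group. The design text speaks of 3 replications.

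Unnamed transcripts were assigned to GENCODE M21 genes (GRCm38) where at least 50% of their exonic bases overlapped on the same strand (bedtools 2.31.1). GENCODE held 27546 of the 27632 genes that the files name. TPM was summed per gene and divided by median-of-ratios factors. Genes reaching a TPM of 1 in 2 or more libraries entered 1 limma 3.58.1 model (R 4.3.3) of the 4 group means on log2(scaled TPM + 1), with eBayes, trend set and 4 residual degrees of freedom. The contrast over both stages is the mean of the KO against WT contrasts. Adjustment was Benjamini-Hochberg over all tested genes. The model was also run on simulated data. There each library was drawn independently, so the run cannot speak to sources shared between libraries. Named are Psma8, the immune subunits, called genes and, per role, the most abundant gene and those with the largest differences in KO at each stage and between the WT stages. Psmb5, Psmb6, Psmb7, Psmb11, Psmd4, Psmd10, Psme1, Psme2b and Adrm1 were named after values were seen. Members, lists and roles were chosen with earlier results of these data known. Python 3.11.15, pandas 2.3.3 and matplotlib 3.10.9 served for tables and plots.

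Near-identical copies of proteasome genes can share reads, and exons of 15 of the 50 genes overlap another gene, 11 of them on the opposite strand. Alternatives were other pseudocounts, filters and scalings, FPKM, named transcripts only, a block for the replicate number, no trend, a fit without the groups outside the comparison, and leaving out each library. For genes, a block that sets WT replicate 2 with KO replicate 1 (the crossed pairing) was added after seeing the data.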

Additional observations from a re-analysis of the deposited data

How the results depend on the processing

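The count of 7 calls over both stages stayed between 7 and 10 with a pseudocount of 0.1 or 5, a TPM of at least 5, quantile normalization or FPKM. It was 2 with no filter on low values, 3 with TPM as deposited, 3 with named transcripts only, 1 with no intensity trend and 0 to 2 on leaving out a library, and the cause was not tested. Leaving out a library also leaves fewer residual degrees of freedom. With the replicate number as a block it was 2. Over all genes tested in each setting, calls were 512 higher and 1519 lower in the main fit. They were 331 and 983 with no filter, 285 and 1705 with TPM as deposited and 273 and 1062 with named transcripts only. They were 232 and 1281 with no intensity trend and 305 and 1130 with the block. Nothing in the labels ties libraries by number. Same-numbered deviations correlated at 0.19 between the WT stages and 0.11 between the KO stages. Between genotypes all correlations were negative, from -0.12 to -0.086. The TPM share in single-exon transcripts outside genes was 12.1% (leptotene) and 9.59% (zygotene) in WT replicate 1 and 23% and 22.8% in replicate 2. In KO it was 21.2% and 23% in replicate 1 and 13.8% and 11.3% in replicate 2. Whether same-numbered libraries of a genotype share a source was not tested. The fit over both stages treats all libraries as independent, which would not hold if they do. A crossed pairing, chosen after seeing the data, also splits each group by its share of TPM in single-exon transcripts outside genes, and gave 12 calls over both stages, 7 of them shared with the main count, 2 at leptotene and 1 at zygotene. Over all tested genes the crossed pairing called 866 higher and 1999 lower over both stages. It called 120 and 807 at leptotene and 164 and 613 at zygotene. The main fit called 26 and 279 at leptotene and 36 and 164 at zygotene. For the stage comparisons and the interaction the count of proteasome genes called stayed 0 under the alternatives run. Using only the libraries of a comparison could not be run for the interaction or over both stages.

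Estimates that turned sign were all of genes or transcripts not called. Psmb7-ps2 (0.03) became -0.042 with a pseudocount of 5, -0.019 with TPM as deposited, -0.027 with FPKM and -0.36 with named transcripts only. With named transcripts only, Psmb10 at leptotene was -0.18, Psmb8 -1.27, Psmb9 0.69 and Psmg3 -0.21. On leaving out 1 library the ranges were -0.76 to 0.98 for Psmb10 at leptotene, and over both stages -0.023 to 0.85 for Psmb10, -0.52 to 0.58 for Psmb7-ps2, -0.29 to 0.73 for Psmb8, -0.87 to 0.17 for Psmb9, -0.35 to 0.075 for Psmd8 and -0.034 to 0.66 for Psmg1. The libraries whose absence turned the sign were WT leptotene replicate 1 for Psmb10, WT leptotene replicate 2 for Psmb7-ps2, Psmb9 and Psmd8, KO leptotene replicate 1 for Psmb8 and Psmg1, KO leptotene replicate 2 for Psmb9, WT zygotene replicate 1 for Psmb8 and WT zygotene replicate 2 for Psmb7-ps2 and Psmb9. The downstream Psma6 transcript ENSMUST00000021412 was -0.047 over both stages with TPM as deposited and 0.062 at zygotene with quantile normalization. On leaving out 1 library it ranged from -0.28 to 0.50 at leptotene, from -0.36 to 0.31 at zygotene and from -0.15 to 0.24 over both stages. Psmf1 lost its call over both stages without WT leptotene replicate 2 (adjusted p = 0.0755), WT zygotene replicate 1 (0.0535), WT zygotene replicate 2 (0.0872) and KO zygotene replicate 2 (0.0583).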
